A study of Homo sapiens with 8 samples.

Results

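Knockdown (KD) of PRMT9 in THP1 cells upregulated 624 genes and downregulated 389 of the 16294 genes tested. Interferon-stimulated genes (ISGs), guanylate binding proteins, chemokines and macrophage genes held the largest rises, while enzymes of sterol and fatty acid synthesis and proteases of the primary granule were among the genes that fell. THP1 is an established human line of monocytic acute myeloid leukemia (AML) that carries an MLL (KMT2A) fusion. The comparison sets the 2 libraries labelled THP1 with shPRMT9 against the 2 labelled THP1 with shCtrl, which are 4 of the study's 8 poly(A) RNA-seq libraries. The remaining 4 hold the same arms in Molm13, another AML line with an MLL fusion. The THP1 shCtrl cells are labelled WT and carried a control shRNA, and the THP1 shPRMT9 cells are labelled as PRMT9 knockdown. Cells of both arms received doxycycline, which induces the shRNA, so the inducer is shared by the controls. All 58174 genes of the THP1 table entered, 57722 of them with a symbol taken from the Molm13 table by gene identifier, and 16294 passed the filter on low counts and were tested.

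The groups have limits as models. Each is a transduced culture of a single line, and the labels do not say whether the 2 libraries of a group came from separate cultures, so the p-values measure only the spread between these libraries, which may be technical. The study also numbers its hairpins 1 and 2, and whether libraries 1 and 2 of shPRMT9 are repeats or hairpins was not settled. With 2 libraries per group an exact permutation test cannot go below p = 0.333, and tests therefore came from the fit across all genes by edgeR's quasi-likelihood method, given as the false discovery rate (FDR). In bulk RNA, a change in the share of a cell state and a change in RNA per cell cannot be told apart.

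PRMT9 is an arginine methyltransferase, an enzyme that adds methyl groups to arginine residues of proteins such as the splicing factor SF3B2. Cytosolic nucleic acid is detected by sensors such as cGAS and RIG-I, which act through STING or MAVS to switch on interferon (IFN) genes. Secreted IFN binds its receptor and activates STAT2 and IRF9, which bind the IFN-stimulated response element (ISRE) in the promoters of ISGs, and the same sensors also release NF-κB, which induces chemokines and cytokines. Monocytic AML cells express this machinery and can take on features of macrophages when they are stimulated.

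Library totals lay between 25127517 and 27356870 counts, mitochondrial genes took 7.44% to 8.13% of them, and the most abundant gene, MT-ND4, took at most 2.08%. Replicate libraries differed by more than counting noise, with a chi-square per gene of 1.80 for shCtrl and 2.17 for shPRMT9, and the biological coefficient of variation was 0.0247. The library names also carry the letters OCI, which other leukemia lines share, and the markers were therefore examined. The monocytic genes LYZ, CSF1R and CD33 and the MLL-fusion target HOXA9 (1366 to 1539 counts) were present in all 4 libraries, MEIS1 had only 4 to 9 counts, and CD3D, CD3E, CD8A and EPCAM, which mark T cells and epithelium, were at 0. Of 23 markers of T, B, erythroid, epithelial and fibroblast cells, 7 could be tested and 2 rose. These were PAX5, a B-cell transcription factor (from 64 and 86 to 298 and 276 counts), and PECAM1, which monocytes also express (from 9694 and 10377 to 20763 and 20501 counts). COL1A1, a fibroblast gene, went from 13 and 27 to 31 and 32 counts (FDR 0.0848). HOXB genes were taken as the contrast to the MLL-fusion markers HOXA9, HOXA10 and MEIS1. Of 5 tested HOXB genes none was called (HOXB3 alone had an FDR below 0.05), and HOXB3 and HOXB4 had 142 to 203 and 141 to 172 counts. The markers of an MLL fusion were thus mixed, with HOXA9 present, MEIS1 nearly absent and the contrast genes HOXB3 and HOXB4 expressed. The B-cell marker MS4A1 had 0 or 1 count, and the part of these markers in the results below was not tested. The identity of the line was not settled by these markers, and the libraries are called THP1 as they are labelled.

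A differentially expressed gene (DEG) was required to have an FDR below 0.05, a fold change above 1.5 in either direction and at least 1 library with more than 1 RPKM (reads scaled to gene length and library size). By this rule 3.83% of the tested genes were upregulated and 2.39% were downregulated, and the counts of gene groups below are read against these shares. The 624 upregulated and 389 downregulated genes differed in the size of their change, since 312 of the former and 88 of the latter passed a 2-fold limit. Among all tested genes, 5378 (33.0%) were higher in both shPRMT9 libraries than in both shCtrl libraries and 5379 (33.0%) were lower in both. Of the DEGs, 623 upregulated and all 389 downregulated genes were separated in this way. The median log2 fold change over all tested genes was −0.00063, and its 5th and 95th percentiles were −0.63 and 0.84. By FDR alone 3100 of the 16294 tested genes were higher and 3027 lower, so most genes below that FDR lay within the 1.5-fold limit. Counts by FDR alone in the gene groups below are read against these numbers and not against the shares of DEGs.

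The DEGs covered the range of expression. Of genes with a mean below 1 CPM (counts scaled to library size), 1.45% rose and 0.55% fell, against 4.64% and 3.93% between 1 and 10 CPM, 4.34% and 2.68% between 10 and 100 CPM, and 3.83% and 1.09% above 100 CPM. In the uppermost range, 91 genes thus rose and 26 fell. Protein-coding genes made up 530 of the upregulated and 331 of the downregulated genes, and long non-coding RNAs made up 62 and 44. None of the 32 tested mitochondrial transcripts was called.

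**Figure D1:**
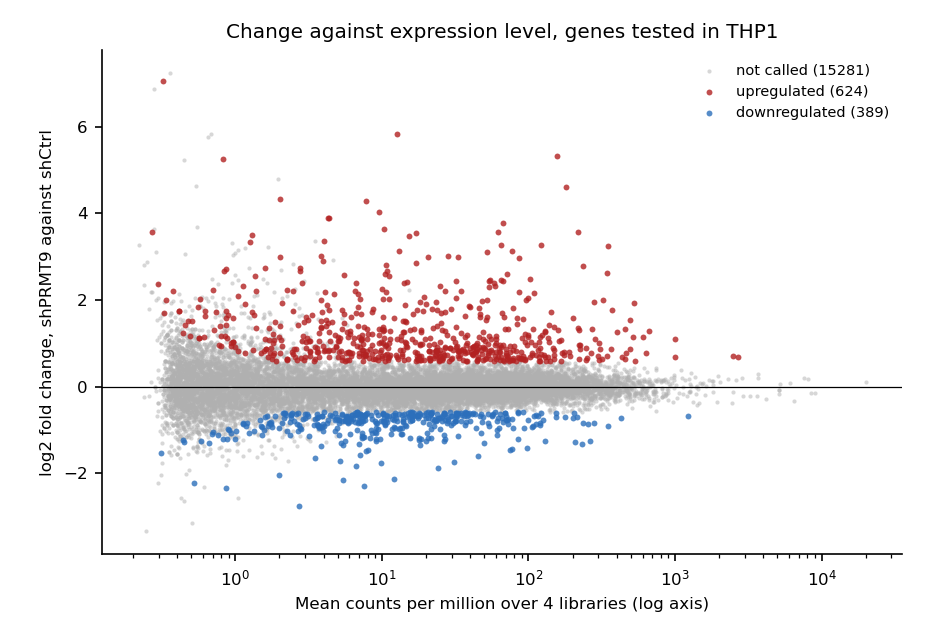
Log2 fold change of shPRMT9 against shCtrl (vertical axis) against mean CPM over the 4 THP1 libraries (horizontal log axis), with a point for each of the 16294 tested genes. The 624 upregulated genes reach further from 0 than the 389 downregulated genes, and grey points beyond the 1.5-fold limit missed the FDR or the RPKM minimum.

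PRMT9 (ENSG00000164169, chromosome 4, 147637785 to 147684230 on GRCh38) was examined first, because its level checks the labels. The controls held 317 and 352 PRMT9 counts, against 60 and 68 after KD (log2 fold change −2.29, SE 0.13, FDR 3.54e-14). Both KD libraries lay below both controls and retained a similar level of the transcript. None of the 7 other protein arginine methyltransferases that could be tested was called. PRMT5, which like PRMT9 makes symmetric dimethylarginine, had 3721 and 3980 counts in shCtrl and 3634 and 3679 in shPRMT9 (log2 fold change 0.02), and PRMT1, the main enzyme for asymmetric dimethylarginine, had 4574 and 4747 counts in shCtrl and 4721 and 4601 in shPRMT9 (0.09). PRMT7, PRMT2, CARM1, PRMT3 and PRMT6 lay between −0.07 and 0.15, and PRMT8 had at most 1 count in any library. Of the genes of 5 PRMT9 substrates, the splicing factor SF3B2 and others that the study examined, none passed the fold limit, and 3 were higher and 1 lower by FDR. The transcript of the poly(A)-binding protein PABPC1 moved most, from 72238 and 75741 to 53271 and 52780 counts (log2 fold change −0.39), and those of XRN2, DDX3X, KHDRBS1 and SF3B2 lay between 0.04 and 0.21.

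The 12 largest rises among DEGs with a mean of at least 20 counts were those of ADAMDEC1, IFI27, CCL8, IFI44L, MIR3142HG, CCL2, IL4I1, MMP9, GBP1, IFI44, CXCL10 and LGALS3BP. ADAMDEC1, a secreted metalloprotease of macrophages and dendritic cells, was nearly silent in shCtrl with 13 and 10 counts and reached 642 and 596 in shPRMT9 (log2 fold change 5.83, SE 0.16, FDR 1.65e-21). MIR3142HG, the host transcript of miR-146a, a microRNA induced by NF-κB, rose from 4 and 6 to 100 and 92 counts (log2 fold change 4.32, SE 0.32, FDR 1.05e-11). The microRNA itself was not measured by these poly(A) libraries. The amino acid oxidase IL4I1, which antigen-presenting cells secrete, rose from 29 and 29 to 483 and 413 counts (log2 fold change 4.04, SE 0.15, FDR 1.72e-18). LGALS3BP, a secreted ligand of galectins, rose from 249 and 264 to 2775 and 2914 counts (log2 fold change 3.57, SE 0.063, FDR 5.75e-26). In each of these genes the 2 shPRMT9 libraries lay close together. Their distance from both controls follows from how the genes were chosen.

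The 12 largest falls were those of UGT3A2, CDA, PRMT9, PLOD2, FADS2, OVOL2, TIMP3, ADGRG5, ABCC13, CLSTN2, VAT1L and CDH24, and each was smaller on the log2 scale than the 12 rises. TIMP3, an inhibitor of matrix metalloproteases, fell from 1029 and 1000 to 251 and 264 counts (log2 fold change −1.88, SE 0.080, FDR 3.69e-17), in the same libraries in which the metalloprotease gene MMP9 rose from 17 and 12 to 207 and 201 counts (log2 fold change 3.90, SE 0.21, FDR 8.58e-15). PLOD2, which hydroxylates lysines of collagen, fell from 222 and 255 to 52 and 48 counts (log2 fold change −2.16, SE 0.15, FDR 2.5e-12). CDA, which deaminates cytidine and the drug cytarabine, was low throughout and fell from 31 and 46 to 9 and 5 counts (log2 fold change −2.34, SE 0.40, FDR 3.01e-05). CLSTN2, a calsyntenin of the cell surface, was the most strongly counted of these genes and fell from 1256 and 1281 to 355 and 356 counts (log2 fold change −1.74, SE 0.069, FDR 6.13e-18). OVOL2, a zinc finger repressor, fell from 83 and 88 to 20 and 19 counts, and ADGRG5, an adhesion G protein-coupled receptor, fell from 261 and 294 to 73 and 74 counts. ABCC13 is annotated as a pseudogene of the ABC transporters, so its counts depend on how reads were assigned.

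IFN genes themselves were at the edge of detection. None of the 22 IFN ligand genes passed the filter on low counts. IFNB1 had 1 and 1 counts in the controls and 10 and 8 after KD, the type III gene IFNL1 had 0 and 0 counts in shCtrl and 1 and 6 in shPRMT9, and IFNW1 had 0 and 0 counts in shCtrl and 2 and 1 in shPRMT9. The 13 IFN-α genes were at 0 in every library, which for a single library allows up to 3 counts, and IFNG, the type II ligand, had at most 1. In a fit without that filter, which took in 4 of these genes, IFNB1 had an FDR of 0.0101 and was below the RPKM minimum, IFNL1 had an FDR of 0.126 and IFNW1 of 0.472.

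Receptors of IFN were present in both arms. IFNAR1 and IFNAR2, the chains of the type I receptor, had FDRs of 1.46e-06 and 7.47e-05 with log2 fold changes of 0.28 and 0.28, below the 1.5-fold limit. Both chains of the IFN-γ receptor passed it. IFNGR1 rose from 1801 and 1863 to 2784 and 2674 counts (log2 fold change 0.67, SE 0.044, FDR 6.23e-13), and IFNGR2 rose from 768 and 925 to 1406 and 1415 counts (log2 fold change 0.83, SE 0.059, FDR 2.84e-12). The kinases JAK1, JAK2 and TYK2 were not called, with log2 fold changes of 0.15, 0.15 and 0.39. STAT6, which serves IL-4, was also below the limit (0.43). STAT2 and IRF9 of the ISGF3 complex, which carries the type I signal to DNA, rose. STAT2 went from 1975 and 2111 to 4517 and 4654 counts (log2 fold change 1.26, SE 0.040, FDR 3.66e-20) and IRF9 from 159 and 177 to 235 and 266 (log2 fold change 0.67, SE 0.12, FDR 2.75e-05).

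Among the IFN regulatory factors, IRF7, which amplifies type I IFN production, rose the most of those called, from 659 and 711 to 1932 and 1980 counts (log2 fold change 1.61, SE 0.055, FDR 2.05e-19). IRF2 also rose (log2 fold change 0.72). IRF1 (0.45) and IRF3 (0.02) were not called, and IRF8 and IRF5 were slightly lower in shPRMT9, with −0.23 and −0.25, also below the fold limit. SOCS3, a feedback inhibitor of cytokine signalling, rose from 69 and 46 to 89 and 82 counts (FDR 0.0126), whereas SOCS2 went from 88 and 64 to 38 and 32 counts and was not called. In all, 9 of 27 tested genes of IFN receptors and signalling were upregulated and none was downregulated, with a median log2 fold change of 0.40.

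Among the sensors of nucleic acids, the RNA helicases and IFI16 rose. DDX58, which encodes RIG-I, rose from 307 and 348 to 1433 and 1414 counts (log2 fold change 2.21, SE 0.067, FDR 1.08e-20), and IFIH1, which encodes the related RNA sensor MDA5, rose from 773 and 879 to 3572 and 3475 counts (log2 fold change 2.19, SE 0.048, FDR 6e-24). DHX58, the third helicase of the family, rose from 203 and 196 to 704 and 737 counts (log2 fold change 1.95, SE 0.087, FDR 1.31e-16). IFI16, a nuclear DNA sensor, rose from 449 and 520 to 2257 and 2194 counts (log2 fold change 2.29, SE 0.057, FDR 1.55e-22). Genes of the cGAS route were expressed in both arms and not called. MB21D1, which encodes cGAS, had 1772 and 1970 counts in shCtrl and 2031 and 1893 in shPRMT9 (log2 fold change 0.16). TMEM173, which encodes STING, had 3612 and 3708 counts in shCtrl and 3225 and 3342 in shPRMT9 (−0.06), the kinase gene TBK1 0.31 and the adaptor gene MAVS −0.18, the last 2 with an FDR below 0.05. ENPP1, the enzyme that degrades cGAMP, was low, with 16 and 16 counts in shCtrl and 15 and 13 in shPRMT9. TREX1, a DNA exonuclease whose gene overlaps ATRIP, was listed at 0 in all 4 libraries. The subunit genes RNASEH2A, RNASEH2B and RNASEH2C of ribonuclease H2, which removes RNA from hybrids with DNA, had log2 fold changes of −0.24, −0.33 and −0.11 and were not called. The RNA editing enzyme gene ADAR rose from 11919 and 12875 to 20063 and 19731 counts (log2 fold change 0.78, SE 0.029, FDR 1.43e-18). Over 29 tested sensing genes, 11 were upregulated and none was downregulated, with a median of 0.60.

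Antiviral effectors formed the group with the largest share of calls among the lists. Of 57 tested, 54 were upregulated and none was downregulated, and the median log2 fold change was 2.00. The 3 not called were IFITM2, SLFN11 and ZC3HAV1, which were higher in both shPRMT9 libraries with log2 fold changes of 0.53, 0.39 and 0.19, and APOBEC3A did not pass the filter on low counts. IFI27, a small mitochondrial membrane protein, rose from 7.68 ± 0.643 to 307 ± 2.64 CPM (SD, n = 2 each). IFI6, a related protein of the endoplasmic reticulum, rose from 871 and 959 to 10190 and 9982 counts (log2 fold change 3.56, SE 0.040, FDR 1.12e-30). IFIT1, which binds RNA that lacks cap methylation, rose from 301 and 344 to 2971 and 2887 counts (log2 fold change 3.28, SE 0.058, FDR 5.75e-26). OAS3, which makes the oligoadenylates that activate RNase L, rose from 1701 and 1850 to 15643 and 15742 counts (log2 fold change 3.24, SE 0.036, FDR 7.28e-31). USP18, which removes ISG15 from proteins and limits IFN receptor signalling, rose from 156 and 179 to 1271 and 1258 counts (log2 fold change 3.01, SE 0.078, FDR 3.63e-22), and ISG15 itself rose from 465 and 432 to 2226 and 2297 counts (log2 fold change 2.43, SE 0.063, FDR 3.63e-22). MX1 and MX2, GTPases that trap viral particles, had log2 fold changes of 2.40 and 2.61. At the lower end of the called members stood SAMHD1, a dNTP hydrolase (from 10902 and 11845 to 16082 and 16009 counts, log2 fold change 0.59). OAS, IFIT, IFITM and GBP genes share sequence within their families, and how reads that fit several of them were counted is uncertain.

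Guanylate binding proteins, GTPases that attack the membranes of intracellular pathogens and answer strongly to IFN-γ, were mostly called. Of 6 tested, 5 were upregulated and none was downregulated, with a median of 2.06. GBP1 rose from 12 and 17 to 199 and 205 counts (log2 fold change 3.88, SE 0.21, FDR 7.25e-15), GBP5 rose from 71 and 72 to 833 and 740 counts (log2 fold change 3.55, SE 0.11, FDR 1.36e-20) and GBP4 rose from 248 and 284 to 1387 and 1319 counts (log2 fold change 2.44, SE 0.071, FDR 4.77e-21). GBP2 (1.67) and GBP3 (1.26) rose less, and GBP7 had too low a level to be called (5 and 6 counts in shCtrl and 14 and 10 in shPRMT9).

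**Figure D2:**
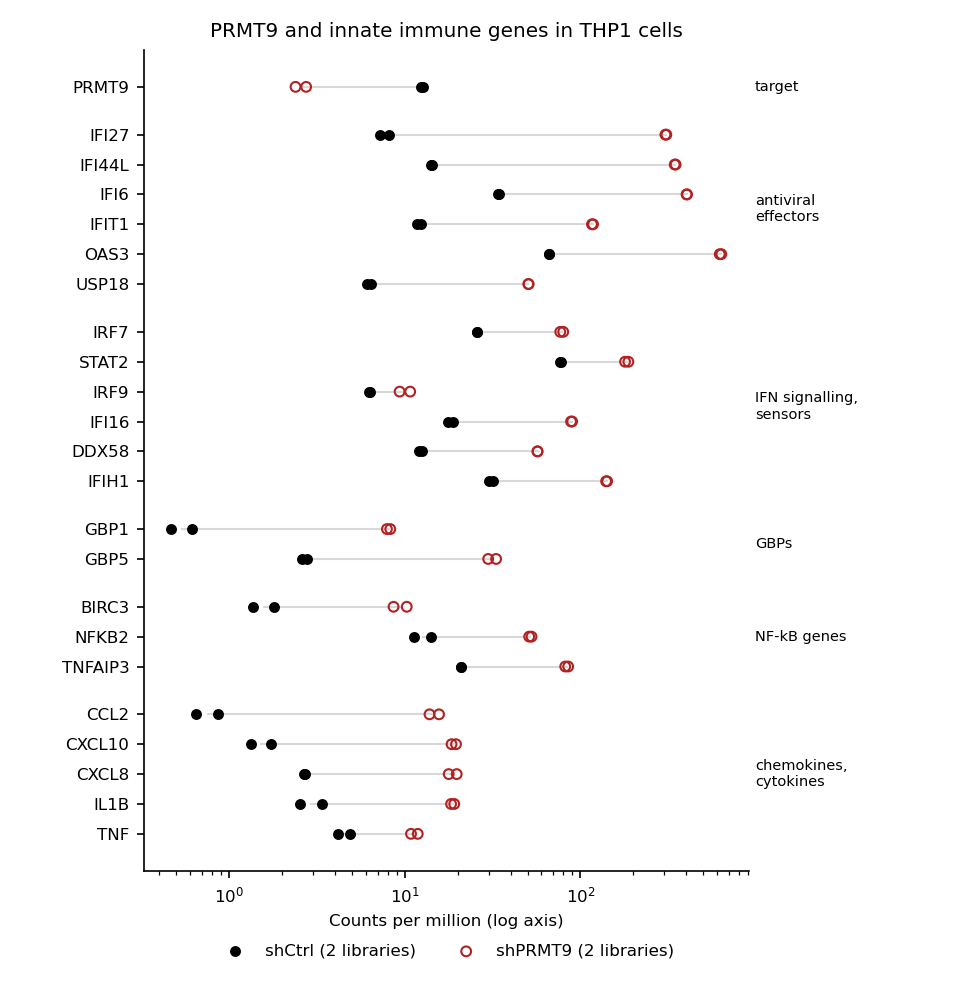
CPM on a horizontal log axis of PRMT9 and 22 innate immune genes in each THP1 library, with filled points for the 2 shCtrl and open points for the 2 shPRMT9 libraries and a grey line between the group means. PRMT9 is lower in both KD libraries, and each of the other genes shown is higher in both KD libraries than in both controls.

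Promoters of the ISGs carry the letters to which ISGF3 and IRFs bind, and the windows of a few leading genes are printed to show them. The sequences are from RefSeq on GRCh38.p14 and hold the 250 bases before the first listed start of each gene, 5′ to 3′ on the strand of the gene, with capitals for each match to the ISRE. The motif searched was GAAA, any 2 bases and GAAA, on both strands, and from the opposite strand it reads TTTC, any 2 bases and TTTC. IFI27 lies on chr14:94110486-94110735 (plus strand) and has matches that begin 108 and 95 bases before the start.
IFI27: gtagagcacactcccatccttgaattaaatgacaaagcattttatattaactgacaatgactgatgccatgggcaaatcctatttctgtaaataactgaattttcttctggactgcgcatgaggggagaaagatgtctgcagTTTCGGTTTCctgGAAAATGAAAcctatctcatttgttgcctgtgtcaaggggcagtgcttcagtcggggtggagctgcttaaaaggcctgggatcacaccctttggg
IFI44L, on chr1:78620198-78620447 (plus strand), holds a repeated stretch, so that the same match occurs 164 and 73 bases before the start.
IFI44L: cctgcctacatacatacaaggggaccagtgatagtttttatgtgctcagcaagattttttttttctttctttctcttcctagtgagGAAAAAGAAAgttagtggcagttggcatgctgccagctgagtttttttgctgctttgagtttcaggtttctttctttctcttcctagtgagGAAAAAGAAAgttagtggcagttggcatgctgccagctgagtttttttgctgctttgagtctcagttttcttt
IFIT1, on chr10:89392373-89392622 (plus strand), has matches on the opposite strand at 116 and 103 bases.
IFIT1: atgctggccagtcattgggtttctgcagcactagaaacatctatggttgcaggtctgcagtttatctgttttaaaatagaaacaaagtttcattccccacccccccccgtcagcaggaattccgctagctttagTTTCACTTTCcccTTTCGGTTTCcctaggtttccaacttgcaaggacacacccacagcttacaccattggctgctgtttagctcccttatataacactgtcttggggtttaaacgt
CXCL10, on chr4:76023498-76023747 (minus strand), holds an ISRE at 221 bases, and the capitals at 177 and 122 bases mark matches to the NF-κB motif, the latter on both strands.
CXCL10: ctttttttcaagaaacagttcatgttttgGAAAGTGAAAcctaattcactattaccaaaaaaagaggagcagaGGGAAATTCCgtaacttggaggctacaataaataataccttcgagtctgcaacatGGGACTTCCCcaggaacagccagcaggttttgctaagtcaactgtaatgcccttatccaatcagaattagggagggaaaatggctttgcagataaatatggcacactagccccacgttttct
A match is a run of letters and not a measured site of binding.

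RefSeq windows, from 250 bases before to 50 after the start, were matched for 11085 of the 16294 tested genes (68.0%), for 422 of the 624 upregulated genes (67.6%) and for 273 of the 389 downregulated genes (70.2%). These shares are under the 80% set as a minimum, because the table lacked a window for the rest, so a comparison of motif shares between DEGs and all genes is void and the values describe the matched windows only. An ISRE was found in 2.97% of all matched windows, in 60 of the 422 upregulated genes (14.2%) and in 2 of the 273 downregulated genes (0.733%). Of 44 matched antiviral effectors 28 held it. It was present in 13 of 216 upregulated genes with a fold change up to 2, in 25 of 146 between 2 and 4 and in 22 of 60 above 4. The NF-κB motif was found in 12.9% of all matched windows, in 16.1% of the upregulated and in 18.7% of the downregulated genes, and in 6 of 11 chemokines. The gamma-activated site of IFN-γ signalling (TTCNNNGAA, either strand) was found in 6.41%, 8.29% and 4.76% of the 3 sets, in that order. ISRE and NF-κB matches were counted separately and could overlap.

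NF-κB genes were called in the same direction as the ISGs. Of 23 tested subunits and regulators, 11 were upregulated and none was downregulated, with a median of 0.65. The subunits of the noncanonical pathway rose, NFKB2 from 359 and 313 to 1285 and 1307 counts (log2 fold change 2.04, SE 0.076, FDR 1.6e-18) and RELB from 195 and 202 to 542 and 516 counts (log2 fold change 1.51, SE 0.091, FDR 9.63e-14), together with the kinase gene MAP3K14 (from 120 and 125 to 248 and 238 counts). The canonical subunits moved less and were not called. RELA had a log2 fold change of 0.36, NFKB1 of 0.57 and REL of 0.07. Among the inhibitors of the pathway, those that rose included TNFAIP3 (from 532 and 579 to 2062 and 2113 counts, log2 fold change 2.00), NFKBIA (from 919 and 973 to 1947 and 1873 counts, 1.11), NFKBIE (0.86) and CYLD (0.91). BCL3, a nuclear partner of the p50 and p52 subunits, rose from 85 and 74 to 253 and 281 counts (log2 fold change 1.84, SE 0.14, FDR 1.02e-11). TNIP1 (0.38) and the kinase gene IKBKB (0.34) were not called. BIRC3, an inhibitor of apoptosis, had the largest change of the group, from 46 and 38 to 258 and 214 counts (log2 fold change 2.58, SE 0.17, FDR 4.56e-13).

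Chemokines were mostly low in THP1, and 15 of 27 listed genes passed the filter on low counts. Of these, 9 were upregulated and CCL23 was downregulated (from 39 and 38 to 17 and 23 counts), and the median was 1.92. A gene can pass that filter through 1 arm alone. CCL8, CCL4 and the low genes CXCL1 and CXCL2 would not have passed it on their controls and needed the shPRMT9 libraries. Low genes that rise are thereby favoured, so the share called and the median partly reflect the filter. The attractants of monocytes CCL2 and CCL8 rose, CCL2 from 22 and 18 to 394 and 343 counts (log2 fold change 4.29, SE 0.17, FDR 7.24e-18) and CCL8, which had 2 and 0 counts in shCtrl and 37 and 43 in shPRMT9 and was at least 14.2-fold higher when the controls were set to 3 counts per library. CCL4 was listed at 0 in both controls and had 14 and 14 counts in shPRMT9, at least 4.98-fold higher by the same floor, but missed the RPKM minimum. The attractant of neutrophils CXCL8 rose from 68 and 75 to 497 and 441 counts (log2 fold change 2.81, SE 0.12, FDR 3.69e-17), and the low genes CXCL1 (from 10 and 3 to 35 and 23 counts) and CXCL2 (from 8 and 17 to 25 and 38 counts) rose too. The log2 fold change of CXCL1 was 2.23, and it was 3.36 without shCtrl library 1 and 1.56 without shCtrl library 2. CXCL10 and CXCL11, ligands of CXCR3, the receptor of activated T cells, rose. CXCL10 went from 1.52 ± 0.273 to 19 ± 0.772 CPM (SD, n = 2 each), and CXCL11 went from 21 and 25 to 96 and 68 counts (log2 fold change 1.92, SE 0.25, FDR 5.23e-07), while CXCL9, with 2 and 0 counts in shCtrl and 8 and 9 in shPRMT9, did not pass the filter. CCL22 (from 72 and 55 to 36 and 35 counts) missed the RPKM minimum, and CXCL16 (from 18 and 28 to 23 and 25 counts) had an FDR of 0.761. CCL5, another attractant of T cells, was the most strongly counted and rose from 377 and 413 to 890 and 932 counts (log2 fold change 1.30, SE 0.071, FDR 1.15e-14).

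Of 22 tested cytokines and growth factors, 9 were upregulated and none was downregulated, with a median of 0.88. The inflammatory cytokine gene IL1B rose from 86 and 70 to 481 and 455 counts (log2 fold change 2.68, SE 0.12, FDR 1.42e-16), and IL1RN, the antagonist of the same receptor, rose from 472 and 480 to 1441 and 1338 counts (log2 fold change 1.64, SE 0.064, FDR 5.63e-18). EBI3, a subunit of IL-27 and IL-35, rose from 9 and 2 to 47 and 72 counts (log2 fold change 3.50, SE 0.42, FDR 1.01e-07). Its controls were low and apart, and the log2 fold change was 4.95 without shCtrl library 1 and 2.74 without shCtrl library 2. EBI3 passed the filter on low counts only through shPRMT9, so the share of cytokines called and their median partly reflect the filter. The members of the TNF family that rose were TNF from 107 and 135 to 298 and 269 counts, TNFSF13B, which encodes the B-cell factor BAFF, from 267 and 311 to 995 and 853 counts, TNFSF14 from 177 and 252 to 443 and 416 counts and TNFSF10, which encodes the death ligand TRAIL, from 652 and 704 to 1143 and 1164 counts. IL18 and TGFB1 were not called, with log2 fold changes of 0.05 and −0.10. IL16 went from 115 and 135 to 234 and 240 counts and missed the RPKM minimum. IL6, IL10 and IL12B did not pass the filter on low counts.

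Receptors for cytokines split. Of 37 tested, 10 were upregulated and 2 were downregulated, with a median of 0.30. CSF1R, the receptor for the macrophage growth factor, rose from 1752 and 1870 to 3445 and 3485 counts (log2 fold change 1.03, SE 0.042, FDR 9.38e-18). IL15RA, which presents IL-15, rose from 61 and 74 to 291 and 270 counts (log2 fold change 2.15, SE 0.13, FDR 2.48e-13), and the costimulatory receptor gene CD40 rose from 28 and 57 to 124 and 128 counts (log2 fold change 1.66, SE 0.21, FDR 1.97e-07). IL7R (from 228 and 250 to 560 and 548 counts, log2 fold change 1.31) and IL10RA (from 112 and 107 to 231 and 213 counts, 1.11) rose too. CX3CR1, the fractalkine receptor of patrolling monocytes, fell from 144 and 146 to 83 and 68 counts (log2 fold change −0.85, SE 0.16, FDR 8.9e-05), and IL3RA, the IL-3 receptor chain also known as CD123, fell from 207 and 234 to 130 and 134 counts (log2 fold change −0.64, SE 0.12, FDR 9.75e-05). IL6R (−0.03) and the receptor for CCL2, CCR2 (0.25), were the most strongly counted members and were not called. FLT3, a growth factor receptor of AML blasts, had a log2 fold change of −0.16 and CSF3R of −0.09, and neither was called.

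Of 22 tested Toll-like receptors and partners, 6 were upregulated and none was downregulated, with a median of 0.33. The coreceptors for lipopolysaccharide rose from low levels, CD14 from 24 and 24 to 116 and 122 counts (log2 fold change 2.40, SE 0.21, FDR 3.73e-10) and LY96, which encodes MD-2, from 13 and 13 to 62 and 52 counts (log2 fold change 2.22, SE 0.30, FDR 9.58e-07). TLR4 itself was lower in both shPRMT9 libraries without passing the fold limit (from 2203 and 2468 to 1699 and 1598 counts, log2 fold change −0.41). The adaptor gene MYD88 rose from 1006 and 1041 to 2023 and 2061 counts (log2 fold change 1.09, SE 0.051, FDR 3.05e-16). TLR2 and NLRP3 were not called, with 0.28 and 0.04, nor were the kinase gene IRAK1 (−0.14) and its inhibitory relative IRAK3 (0.29).

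Of 21 tested genes of antigen presentation by MHC class I, 11 were upregulated and none was downregulated, with a median of 0.59, and 20 had an FDR below 0.05 with a higher level. HLA-B rose from 6791 and 7146 to 16191 and 16566 counts (log2 fold change 1.33, SE 0.032, FDR 5.92e-23) and HLA-C from 1671 and 1652 to 3398 and 3461 counts (log2 fold change 1.14, SE 0.045, FDR 8.32e-18). Their light chain gene B2M rose from 16417 and 17437 to 34890 and 33042 counts (log2 fold change 1.10, SE 0.029, FDR 6.76e-22). The peptide transporter gene TAP1 (1.03) and the immunoproteasome gene PSMB9 (1.18) rose, whereas the third immunoproteasome gene, PSMB10, was not called (0.01). HLA-G, a nonclassical gene, rose from a low level (from 62 and 43 to 180 and 154 counts, 1.76). The chaperone genes CALR (0.17) and CANX (0.08) were not called. HLA genes are similar and polymorphic, so the split of reads between them is uncertain. Of 12 tested genes of the MHC class II pathway, HLA-DRA (from 35 and 32 to 54 and 54 counts) and CTSS (from 2321 and 2500 to 3907 and 3685 counts) were upregulated and none was downregulated, and 5 were higher and none lower by FDR. HLA-DOB, which modulates peptide loading, went from 4 and 8 to 17 and 14 counts (log2 fold change 1.45, SE 0.51, FDR 0.0247) and missed the RPKM minimum. Among the others, CD74 had 0.57, HLA-DRB1 0.50 and RFX5 0.05 without a call, and CIITA, the activator of the class II genes, had 78 and 83 counts in shCtrl and 71 and 61 in shPRMT9 (−0.19).

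Of 18 tested costimulation and checkpoint genes, 4 were upregulated. The adhesion molecule gene ICAM1 rose from 83 and 76 to 454 and 448 counts (log2 fold change 2.60, SE 0.12, FDR 1.28e-16), HAVCR2, which encodes TIM-3, rose from 15 and 32 to 104 and 99 counts, and LGALS9, which encodes its ligand galectin-9, rose from 3892 and 4150 to 7068 and 7500 counts. CD274, which encodes PD-L1, had 12 and 17 counts in shCtrl and 46 and 42 in shPRMT9 (log2 fold change 1.69, FDR 0.000101) and missed the RPKM minimum, as did CD80 and PDCD1LG2. CD86 had 31 and 30 counts in shCtrl and 62 and 59 in shPRMT9 and missed it as well. CD47, the signal against phagocytosis, and SIRPA, its receptor, were not called (0.38 and 0.40). Of 15 tested complement genes, C3 rose from 475 and 508 to 2323 and 2535 counts (log2 fold change 2.40, SE 0.061, FDR 2e-22) with the anaphylatoxin receptors C3AR1 (1.35) and C5AR1 (1.05), and CFD, which encodes factor D, fell from 2891 and 2982 to 1823 and 1825 counts (log2 fold change −0.59, SE 0.043, FDR 7.07e-12). CD46 (−0.03) and C5 (−0.17) were not called.

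Of 68 tested genes of monocytes and macrophages, 36 were upregulated and LPL alone was downregulated (from 623 and 710 to 420 and 408 counts), with a median log2 fold change of 0.83. Genes of activated macrophages stood at the top. SIGLEC1, a sialic acid receptor of macrophages, rose from 616 and 610 to 5133 and 5847 counts (log2 fold change 3.26, SE 0.061, FDR 1.67e-25). GPNMB, a glycoprotein of lysosomes, rose from 68 and 75 to 566 and 599 counts (log2 fold change 3.12, SE 0.11, FDR 6.61e-19). CYBB, the catalytic subunit of the phagocyte oxidase, rose from 402 and 442 to 3459 and 3419 counts (log2 fold change 3.12, SE 0.053, FDR 2.57e-26), and its cytosolic partner gene NCF1 (2.66) rose with it, while the membrane partner gene CYBA (0.01) was not called. S100A9 and S100A8, which together form calprotectin, rose from 456 and 450 to 1548 and 1552 counts and from 184 and 234 to 662 and 669 counts, and S100A12, at 0 in both controls, had 17 and 15 counts and was at least 5.68-fold higher by the floor of 3 counts per library. S100A12 thus passed the filter on low counts only through shPRMT9.

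Some adhesion and lysosomal genes of monocytes rose as well. The integrin genes ITGAX (1.29), ITGAM (1.15), ITGAL (0.90) and ITGB2 (0.86) rose on the log2 scale, as did the cathepsin genes CTSD (1.04), CTSB (0.96) and CTSL (0.89). Lysozyme, LYZ, rose from 48446 and 52233 to 79446 and 74633 counts (log2 fold change 0.71, SE 0.028, FDR 5.84e-18). The early myeloid antigen CD33 was not called (from 1793 and 1813 to 1855 and 1896 counts, log2 fold change 0.15), nor were the Fc receptor genes FCGR1A and FCGR2A (−0.01 and 0.0028), AIF1 (0.05), MS4A6A (−0.09) and TREM2 (0.03). The scavenger receptor CD163 went from 18 and 14 to 102 and 114 counts and MERTK from 28 and 32 to 96 and 94 counts, and both missed the RPKM minimum. MRC1, the mannose receptor, had at most 4 counts in any library.

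Primary granule genes mark promyelocytes. Of 12 tested, none was upregulated and 4 were downregulated, with a median of −0.27, while 3 were higher by FDR within the fold limit. Cathepsin G, CTSG, fell from 4743 and 5037 to 1991 and 1865 counts (log2 fold change −1.25, SE 0.040, FDR 5.28e-20). MS4A3, a marker of granulocyte and monocyte progenitors, fell from 8169 and 9270 to 4589 and 4453 counts (log2 fold change −0.85, SE 0.034, FDR 8.32e-18). PRTN3, which encodes proteinase 3, fell from 40151 and 40137 to 23229 and 23757 counts (log2 fold change −0.68, SE 0.033, FDR 5.38e-16), and MPO, myeloperoxidase, fell from a low level, from 211 and 188 to 108 and 104 counts (log2 fold change −0.82, SE 0.14, FDR 2.23e-05). ELANE, the neutrophil elastase, went from 20404 and 20559 to 16785 and 17111 counts without passing the fold limit (−0.18), and neither did the granule proteoglycan gene SRGN (from 55166 and 60358 to 43902 and 40666 counts, −0.36). RNASE2 was higher in both KD libraries (0.49), likewise below the limit.

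Of 40 tested myeloid transcription factors, 8 rose and 1 fell. BATF2, an IFN-induced factor, rose from 21 and 17 to 116 and 123 counts (log2 fold change 2.74, SE 0.23, FDR 9.83e-11). The bHLH repressor MSC rose from 45 and 70 to 270 and 293 counts, HESX1 rose from 57 and 40 to 143 and 157 counts, and the AP-1 genes FOS (1.02) and FOSL1 (0.84) also rose. MITF fell from 248 and 247 to 148 and 146 counts (log2 fold change −0.66, SE 0.12, FDR 4.33e-05). The lineage factors SPI1, which encodes PU.1 (0.42), ZEB2 (0.13), CEBPA (−0.12) and CEBPB (0.41) were not called, and GFI1, a repressor of monocyte fate, was lower in both KD libraries without passing the limit (from 4175 and 4467 to 2840 and 2762 counts, −0.53).

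MLL fusion targets and stemness genes were called in both directions, 5.9% up and 5.9% down, against 3.83% and 2.39% of all tested genes. Of 34 tested MLL fusion targets and stemness genes, 2 rose, CD44 (from 1646 and 1823 to 2895 and 2745 counts) and TCF4 (from 346 and 464 to 756 and 754 counts), and 2 fell, HOXA10 (from 1107 and 1260 to 762 and 714 counts) and the survival gene BCL2 (from 4788 and 5185 to 3149 and 3026 counts). The median was −0.15, with 17 genes lower by FDR and 3 higher. HOXA9 had a log2 fold change of 0.20, MYB of −0.13, CDK6 of −0.06 and MEF2C of −0.32, and none of these passed the fold limit. MYC went from 6442 and 6751 to 4825 and 4908 counts (−0.34, FDR 3.67e-09), also within the limit, and of 14 tested genes of its network only MXI1, an antagonist, was called, falling from 933 and 1013 to 585 and 550 counts, and MYCBP2 was at 0.16. CD34 was low in all libraries (23 and 19 counts in shCtrl and 26 and 16 in shPRMT9).

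Some genes of lipid synthesis fell. Of 28 tested genes of sterol synthesis and uptake, 7 were downregulated and none was upregulated, the median log2 fold change was −0.35, and 21 were lower with an FDR below 0.05 and none higher. SQLE, which makes squalene epoxide, fell from 3595 and 3832 to 1832 and 1793 counts (log2 fold change −0.94, SE 0.041, FDR 5.74e-17). DHCR7, which makes cholesterol from its last precursor, fell from 792 and 783 to 395 and 388 counts (log2 fold change −0.91, SE 0.075, FDR 7.03e-11). INSIG1, which retains SREBPs in the endoplasmic reticulum and is itself a target of SREBP2, fell from 4074 and 4300 to 2135 and 2084 counts (log2 fold change −0.89, SE 0.040, FDR 8.51e-17). IDI1 (−0.67), LSS (−0.61) and TM7SF2 (−0.78) fell as well, as did MYLIP (−0.65), which is not an enzyme of the pathway but is a ubiquitin ligase that answers to LXR. SREBF2, which encodes SREBP2, went from 5681 and 5767 to 4484 and 4338 counts (−0.28) and FDFT1 was at −0.24, both with an FDR below 0.05 and a fold change under 1.5.

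Among fatty acid genes the desaturase genes FADS1, FADS2 and SCD fell, while FADS3 (0.34) and SCD5 (−0.38) were not called. Of 22 tested, 5 were downregulated and 1 was upregulated, with a median of −0.19. FADS2 fell from 537 and 517 to 132 and 95 counts (log2 fold change −2.12, SE 0.12, FDR 1.27e-14), FADS1 from 1891 and 1859 to 730 and 699 counts (log2 fold change −1.30, SE 0.059, FDR 1.52e-16) and SCD from 9797 and 9950 to 3996 and 3808 counts (log2 fold change −1.25, SE 0.036, FDR 5.08e-21). SREBF1, which encodes the transcription factor SREBP1, fell from 1677 and 1730 to 746 and 782 counts (log2 fold change −1.06, SE 0.057, FDR 6.27e-15), and so did PNPLA3, a lipase gene of lipid droplets, from 94 and 98 to 41 and 48 counts. FASN, the fatty acid synthase, went from 15561 and 16073 to 10182 and 10984 counts (−0.49) and was short of the fold limit, and ACLY, which supplies acetyl-CoA, was at −0.05. ACSL1, which activates long-chain fatty acids and is induced in stimulated macrophages, was the only member to rise, from 1921 and 2107 to 4347 and 4222 counts (log2 fold change 1.18, SE 0.039, FDR 1.13e-19).

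**Figure D3:**
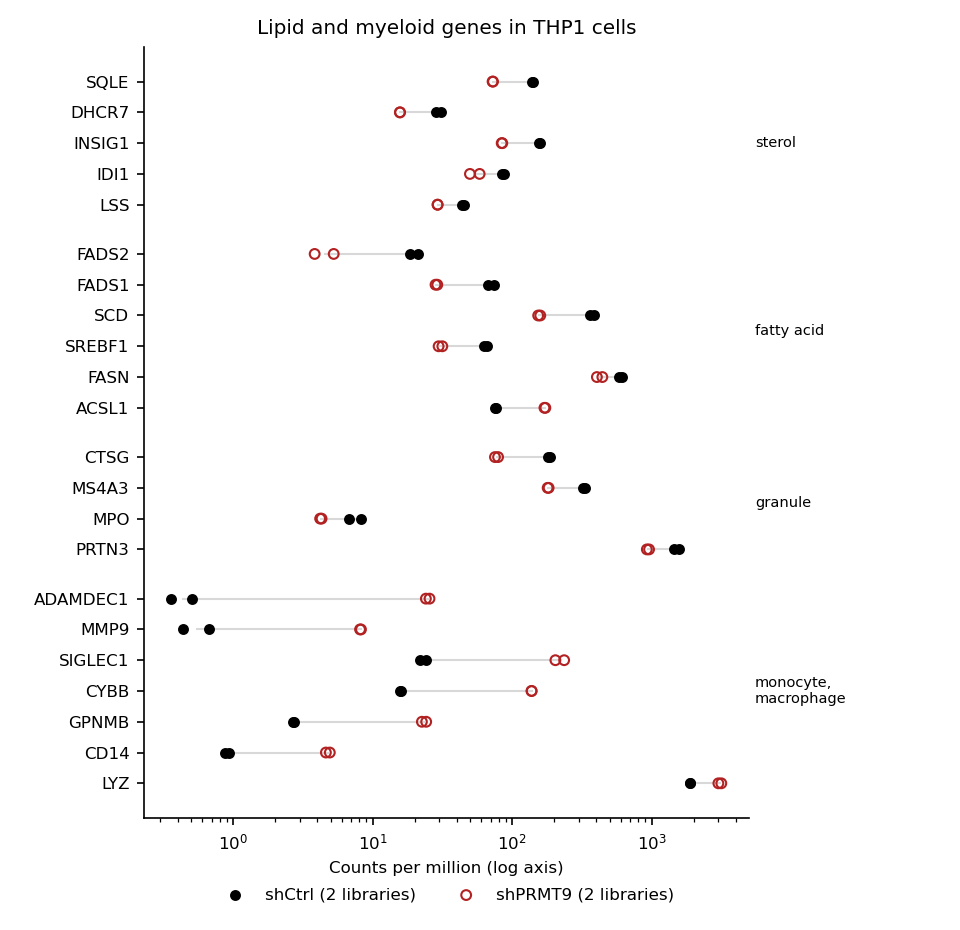
CPM on a horizontal log axis of 11 lipid and 11 myeloid genes in each THP1 library, with filled points for the 2 shCtrl and open points for the 2 shPRMT9 libraries and a grey line between the group means. Except for ACSL1 the lipid genes and the granule genes lie lower in both KD libraries, and the monocyte and macrophage genes lie higher.

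Among the lists of mitosis, replication and G1 genes, only the G1 list held calls. None of 37 tested mitosis genes was called in either direction, although 29 had an FDR below 0.05 and a lower level, with a median of −0.20. MKI67 went from 30874 and 33723 to 26684 and 26968 counts (−0.17), TOP2A from 25058 and 28210 to 20472 and 19814 counts (−0.31) and CENPA, the member furthest from 0, from 904 and 1008 to 643 and 587 counts (−0.54). None of 40 replication genes was called, with 16 lower and 7 higher by FDR and a median of −0.06, and MCM5 (0.40) and GINS2 (−0.53) were at the ends of the range, with MCM3 (−0.03) and MCM4 (0.13) between them. Of 23 tested regulators of the G1 phase, 1 rose and 4 fell. CDKN1A, the p21 inhibitor of cyclin-dependent kinases, rose from 165 and 152 to 363 and 364 counts (log2 fold change 1.29, SE 0.11, FDR 8.6e-11). CCNE2, a cyclin of the S phase entry, fell from 1721 and 1983 to 1093 and 1101 counts (log2 fold change −0.66, SE 0.052, FDR 2.91e-11), and E2F3 fell from 1463 and 1627 to 877 and 930 counts (log2 fold change −0.68, SE 0.056, FDR 6.78e-11). CDKN2C and CDKN2D, further inhibitors, fell from 6628 and 6807 to 3923 and 3678 counts and from 120 and 162 to 84 and 57 counts, and CDK4 had an FDR of 0.947.

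BTG2, an inhibitor of proliferation, rose (from 229 and 276 to 502 and 471 counts), and GADD45A, a stress-induced gene of growth arrest, fell (from 97 and 104 to 66 and 55 counts). MDM2 (0.27), BAX (0.05), CCNG1 (−0.17) and PMAIP1 (0.20) were not called. None of 37 DNA damage response and R-loop genes was called, with 9 higher and 5 lower by FDR, beside 3100 and 3027 of all 16294 tested genes. Their median was 0.01 and turned to −0.02 when libraries were scaled by their totals alone, and ATR (0.28), PRKDC (0.07), DDX5 (0.14) and CHEK1 (−0.31) are examples. The histone gene H2AFX, which encodes H2AX, went from 4433 and 4415 to 2907 and 2900 counts (−0.51) and lay at the lower end of this list.

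Most ribosomal protein genes were lower by less than the fold limit. None of 80 tested was called, but 68 were lower with an FDR below 0.05 and RPL12 alone was higher, with a median log2 fold change of −0.20. RPS6 went from 40071 and 45802 to 30431 and 29843 counts (−0.41) and RPL8 from 38792 and 39132 to 32729 and 32435 counts (−0.17). Many ribosomal protein genes have processed pseudogenes, so their counts are uncertain to that extent. Of 29 tested translation factors none was called (6 higher and 12 lower by FDR), and EEF1A1 went from 89918 and 96640 to 76716 and 74344 counts (−0.21) while EEF2 was at −0.13 and EIF4G1 at 0.21. Heat shock genes (0 of 20 called, 11 higher and 2 lower by FDR, median 0.11) moved little, with HSP90AB1 at 0.20, HSPA8 at −0.22 and DNAJA1 at 0.35.

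Some genes of oxidative stress and iron storage rose. Of 23 tested, 7 were upregulated and none was downregulated, with a median of 0.32. HMOX1, the inducible heme oxygenase, rose from 61 and 73 to 703 and 701 counts (log2 fold change 3.48, SE 0.11, FDR 1.96e-20). The ferritin chains rose from high levels, FTH1 from 6270 and 6299 to 13949 and 14361 counts (log2 fold change 1.26, SE 0.035, FDR 1.88e-21) and FTL from 54587 and 56125 to 84616 and 82062 counts (log2 fold change 0.68, SE 0.028, FDR 1.86e-17), and both have processed pseudogenes. Targets of NRF2 moved unevenly, as NQO1 (0.90) and GCLM (0.73) rose and TXNRD1 (0.23) and GCLC (0.32) were not called. SQSTM1, which encodes the autophagy receptor p62, rose from 2166 and 2213 to 3774 and 3657 counts (0.86), while CAT (−0.12) and GPX1 (0.22) were not called. SOD2, a common NF-κB target, was higher in both KD libraries without passing the limit (from 3467 and 4000 to 5024 and 4784 counts, 0.49).

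Of 32 ATF4 and unfolded protein response genes, 3 rose and 1 fell. MTHFD2, an enzyme of mitochondrial folate metabolism, rose from 1541 and 1735 to 3972 and 3702 counts (log2 fold change 1.32, SE 0.043, FDR 8.25e-20), and NUPR1 (from 56 and 66 to 162 and 154 counts) and CHAC1 (from 60 and 46 to 105 and 99 counts) rose from low levels. VLDLR fell (from 6256 and 6898 to 4037 and 3993 counts). ATF4 itself (−0.06), ASNS (0.33), DDIT3 (0.42) and HSPA5 (0.16) were not called, and HSP90B1 had an FDR of 0.927. Of 35 hypoxia and glycolysis genes, 4 rose and 3 fell. PKM, pyruvate kinase, rose from 20053 and 20790 to 30838 and 30860 counts (log2 fold change 0.69, SE 0.029, FDR 3.14e-17), with PFKFB4 (1.03), NDRG1 (0.78) and VEGFA (0.84), while PLOD2, BNIP3 (from 811 and 771 to 447 and 415 counts) and EPAS1 (from 190 and 217 to 121 and 110 counts) fell, and ENO1 (0.12), GAPDH (0.08), LDHA (0.17) and SLC2A1 (−0.27) were not called. Among 32 apoptosis regulators, TNFSF10, CASP1 (0.68) and CASP4 (0.62) rose, and the BH3 gene BIK (from 273 and 260 to 97 and 102 counts), BCL2 and BNIP3 fell. MCL1 (−0.31) and BIRC5 (−0.37) were not called.

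**Figure D4:**
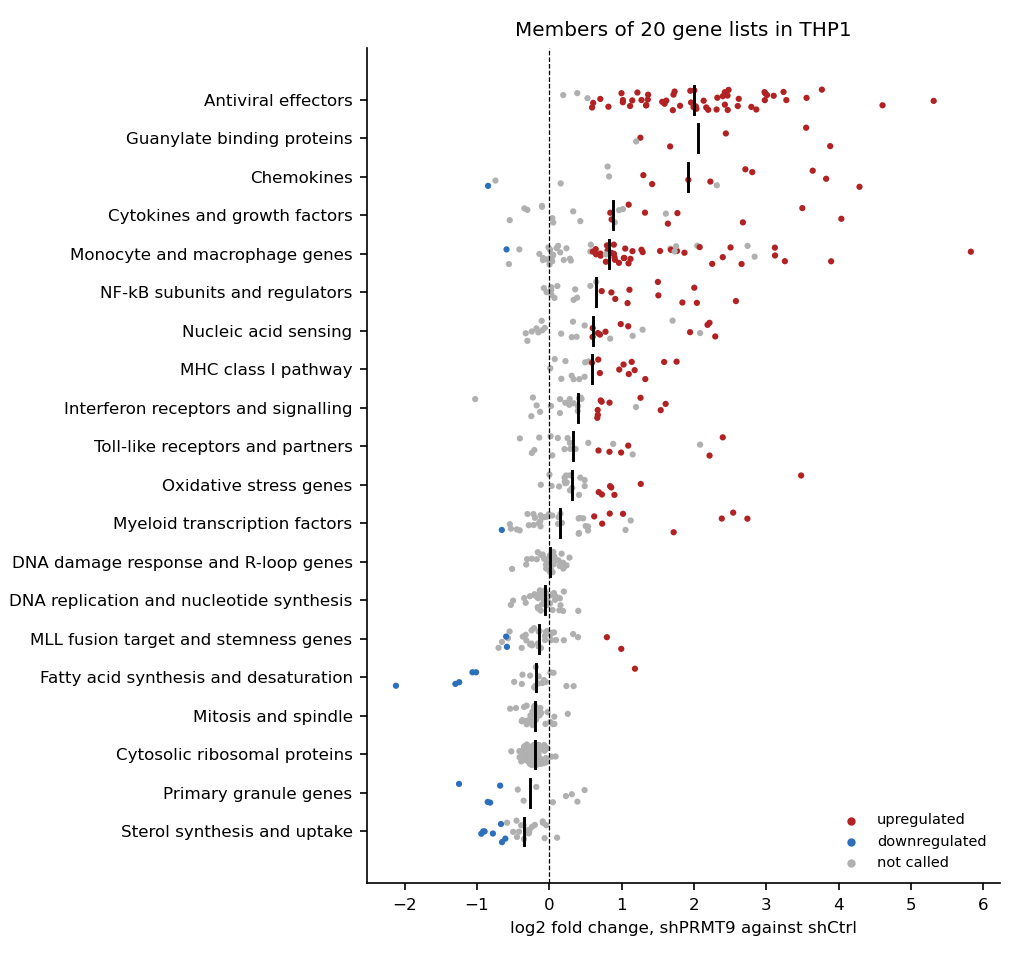
Log2 fold change of shPRMT9 against shCtrl in THP1 (horizontal axis) for the tested members of 20 gene lists, with a black bar for each list's median, a dashed line for the median of all tested genes and colours for the calls. Genes with at most 3 counts in each control are drawn at their lower bound. The antiviral effectors have a median of 2.00 and the sterol genes of −0.35.

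Calls close to a limit depended on single libraries. Each library was left out in turn, with the remaining library of that arm assumed to vary like the others, and the log2 fold change without it is given in parentheses, with the FDR where that was 0.05 or above. Without shCtrl library 1, the call was lost for CASP4 (0.57), CCL23 (−0.77, FDR 0.155), CFD (−0.56), CXCL2 (1.03, FDR 0.0702) and LSS (−0.58). Without shCtrl library 2, it was lost for CCL23 (−0.93, FDR 0.0703), HLA-DRA (0.66, FDR 0.0994), HOXA10 (−0.55), LIPA (0.56), LPL (−0.56), PSMB8 (0.56) and SOCS3 (0.34, FDR 0.275). Without shPRMT9 library 1, it was lost for CCL23 (−0.64, FDR 0.211), CFD (−0.58) and CXCL1 (1.90). Without shPRMT9 library 2, it was lost for BCL2 (−0.58), CXCL2 (1.08, FDR 0.0955), GADD45A (−0.52, FDR 0.0599), HOXA10 (−0.55), IDI1 (−0.56), IRF9 (0.57), LPL (−0.58) and SAMHD1 (0.58). In the other direction, IFITM2 passed the limits without shCtrl library 1 (0.59) and CENPA without shPRMT9 library 1 (−0.60). Scaling by library totals or by upper quartiles, and the absence of a filter, each ended the calls of PSMB8 and SAMHD1.

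Some DEGs lay side by side in the genome. Counting runs of at least 3 neighbouring protein-coding genes that were all upregulated, there were 11 runs with 36 of the 530 upregulated protein-coding genes, and 1 run of 3 of the 331 downregulated genes. The longest was on chromosome 10, from 89213569 to 89421001, and held LIPA, IFIT2, IFIT3, IFIT1 and IFIT5. LIPA encodes the lysosomal acid lipase and rose least of the run (from 1508 and 1467 to 2185 and 2160 counts, log2 fold change 0.64). Runs of known families were those of GBP3, GBP1 and GBP2 on chromosome 1, of S100A9, S100A12 and S100A8 on the same chromosome, of OAS1, OAS3 and OAS2 on chromosome 12, of CASP4, CASP1 and CARD16 on chromosome 11, of CXCL8, CXCL1 and CXCL2 on chromosome 4 and of PSMB8, PSMB9 and TAP1 on chromosome 6. On chromosome 16 NOD2 and CYLD rose together with NKD1 and SNX20, all by less than 2-fold. Chromosome 6, which carries the MHC, had the largest share of upregulated genes, 53 of 832 (6.37%). Many neighbours in these runs are paralogs, and they are not independent of each other.

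Molm13 served as a comparison for the THP1 genes, with separate control libraries. Of the 624 genes upregulated in THP1, 561 could be tested in Molm13, and 437 of these (77.9%) were higher there with an FDR below 0.05 while 52 (9.27%) were lower. Of the 13476 genes tested in both lines, 35.6% were higher in Molm13 shPRMT9 and 35.8% were lower. The 389 downregulated genes were not matched in this way. Of the 327 that could be tested in Molm13, 140 (42.8%) were lower there and 107 (32.7%) were higher. Tested directly in a fit of all 8 libraries, the response to shPRMT9 was unequal in THP1 and Molm13 for 42.2% of 19288 genes, and for 641 of the 1012 THP1 DEGs that this fit included. Of the 19288 genes, 4404 had a higher and 3738 a lower effect in THP1, and the counts of gene groups below are read against these numbers.

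The difference showed in some of the gene groups. Monocyte and macrophage genes had similar medians, 0.81 in THP1 and 0.88 in Molm13 over the 55 tested in both lines. Of 68 members, 20 had a higher and 23 a lower effect in THP1 in the fit of all 8 libraries. The median of the antiviral effectors was 2.00 in THP1 and 1.19 in Molm13 on the log2 scale, and of 57 members 28 had a higher and 12 a lower effect in THP1 by the test of the difference (FDR below 0.05). LY6E, a GPI-anchored ISG product, rose from 837 and 828 to 4331 and 4365 counts in THP1, against a log2 fold change of 0.16 in Molm13. PARP14 (1.99 in THP1, 0.46 in Molm13), TRIM22 (2.00 and 0.55) and IFITM3 (2.79 and 0.90) also rose more in THP1, while OAS2 (2.62 and 4.11) and IFIT2 (2.31 and 3.85) rose less. Of 21 MHC class I genes, 17 had a higher effect in THP1 and none a lower one.

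The median of the sterol genes differed between the lines in sign. It was −0.35 in THP1 and 0.23 in Molm13, and 23 of 28 had a lower effect in THP1 by the test of the difference. DHCR7 had −0.91 and 0.33 (FDR of the difference 1.15e-20), INSIG1 −0.89 and 0.13 (FDR 7.04e-32) and TM7SF2 −0.78 and 1.47 (FDR 5.11e-20). The fatty acid genes as a list did not differ in this way. Their median was −0.19 in THP1 and −0.30 in Molm13 over the 21 tested in both lines. Of 22 members, 9 had a higher and 10 a lower effect in THP1. Among them, FADS2 fell in THP1 and was higher in Molm13 (−2.12 and 0.43, FDR 1.39e-32), and SCD fell further in THP1 (−1.25 and −0.42, FDR 1.28e-32). CTSG (−1.25 and −0.44) also fell further, and CFD fell in THP1 and was higher in Molm13 (−0.59 and 0.82). The median of the mitosis genes was below 0 in both lines, at −0.20 in THP1 and −0.72 in Molm13, and the effect was higher in THP1, thus nearer to 0 at the median, for 35 of 37. The lines were handled as separate tables, so line and handling cannot be told apart.

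**Figure D5:**
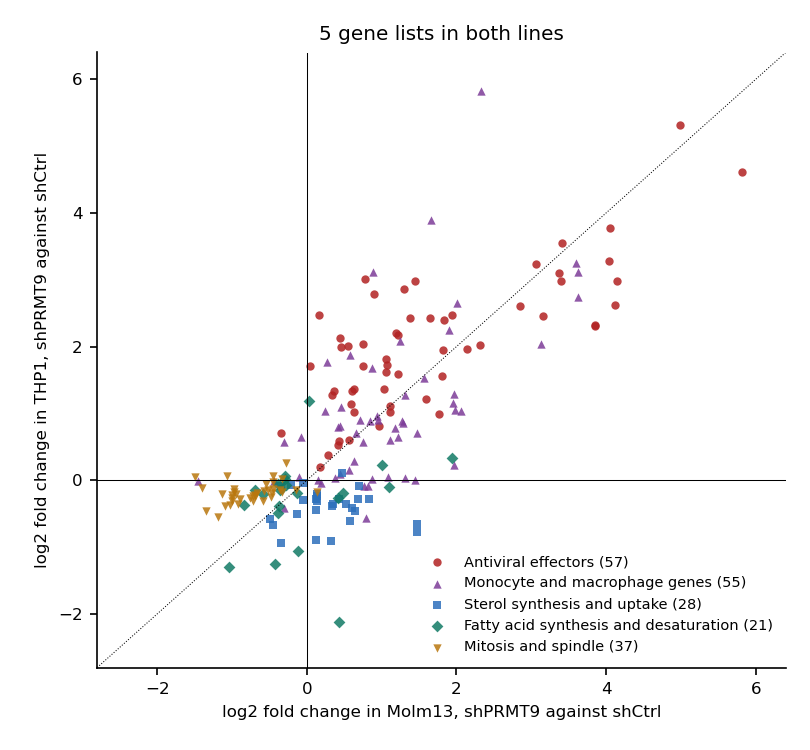
Log2 fold change of shPRMT9 against shCtrl in THP1 (vertical axis) and in Molm13 (horizontal axis) for members of 5 gene lists that were tested in both lines, with the number of members in the legend and a dotted line where both are equal. Antiviral effectors lie mostly in the upper right, and most sterol genes lie below 0 on the THP1 axis, with a median of −0.35 there and 0.23 in Molm13.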

How the data were processed

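RNA was measured by poly(A) RNA-seq in 8 libraries, of which the 4 of THP1 were analysed and the 4 of Molm13 served for comparison. The authors deposited raw read counts per gene in a table for each line. The submitters' processing notes name TopHat2 2.0.8, HTSeq 0.11.2, edgeR 3.30.3 and build hg38, and the annotation and strand setting are not given in the sources used here. The deposited THP1 counts were filtered with filterByExpr, scaled by TMM and tested with edgeR 4.0.16 in R 4.3.3 (quasi-likelihood F-test, Benjamini-Hochberg over the 16294 tested genes). The limits for a DEG (FDR 0.05, fold change 1.5 and RPKM 1 in at least 1 library) follow the study. The procedure was tested on simulated data. The effect in THP1 minus that in Molm13 was tested in 1 fit of all 8 libraries. Alternatives were DESeq2 1.42.0, other scalings, filters and limits, a replicate block and the omission of each library.

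Members and gene lists were chosen with earlier results of these data known, so lists are described by counts and medians only. Named by rule were PRMT9, the 12 largest rises and falls among DEGs with a mean of at least 20 counts and no overlap between groups, the 5 genes of lowest FDR in the comparison of THP1 with Molm13, and per list up to 4 DEGs with the largest change and up to 2 uncalled genes with the highest level. Further list members and the genes in neighbouring runs were named after their values were seen, and some genes that the rule selects are not reported here. Promoters were matched by symbol to RefSeq (GRCh38.p14). A floor of 3 counts per library covers counting error only. Figures were drawn with matplotlib 3.10.9.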

Additional observations from a re-analysis of the deposited data

Results flagged for a closer look

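The effect of shPRMT9 differed between THP1 and Molm13 in the fit of all 8 libraries (edgeR, FDR below 0.05) for 4404 genes with a higher and 3738 with a lower effect in THP1. Each difference below is the log2 fold change in THP1 minus that in Molm13. The 5 smallest FDRs belonged to GLUL, glutamine synthetase (−1.49), ACPP, an acid phosphatase (−1.74), NDRG1, a hypoxia-responsive gene (−2.23), HSPH1, a heat shock protein of the HSP110 family (1.49), and LY6E (2.33). In Molm13, GLUL went from 15964 and 15788 to 31979 and 36323 counts, ACPP from 2019 and 1954 to 5185 and 5988 counts, NDRG1 from 1056 and 872 to 7324 and 8387 counts and HSPH1 from 12267 and 11884 to 4482 and 5180 counts. In THP1 their log2 fold changes were −0.40, −0.27, 0.78 and 0.16, of which only that of NDRG1 passed the fold limit.

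Among the largest rises in THP1, the effect was larger there for ADAMDEC1 (3.51), CCL2 (5.16) and MMP9 (2.24), and smaller for IFI44L (−1.20), which went from 5 and 6 to 299 and 333 counts in Molm13. CCL2 had at most 2 counts in any Molm13 library and was not tested there alone. Among the largest falls, the effect was lower in THP1 for UGT3A2 (−3.96), CDA (−4.43), FADS2 (−2.53), ADGRG5 (−2.30), ABCC13 (−1.08) and CDH24 (−0.78). UGT3A2 and CDA had at most 6 counts in any Molm13 library and were not tested there alone. FADS2 (674 and 698 to 846 and 998 counts) and ADGRG5 (578 and 595 to 751 and 905 counts) were higher in Molm13 shPRMT9.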

How the results depend on the processing

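The call limits moved the counts most. With a fold change above 2, 312 genes were upregulated and 88 downregulated, by FDR alone 3100 and 3027, and with no RPKM minimum 941 and 603. Other scalings, filters, DESeq2 and the fit of all 8 libraries gave 567 to 635 upregulated and 337 to 439 downregulated genes, with the upregulated share between 57.2% and 62.7% (61.6% as reported). Leaving out each library gave 595 to 622 and 379 to 420. DESeq2 ended the calls of CCL23 (FDR 0.199), GADD45A (0.0853), HLA-DRA (0.126) and SOCS3 (0.116), and HOXA10 fell short of the fold limit in the 1 CPM filter and in the fit of 8 libraries. The 1 CPM filter removed the called genes CXCL1, CXCL2 and S100A12, and without 1 control library the fitted change of CCL8, EBI3 and CXCL1 moved by over 1.5 times (CCL8 from 5.25 to 8.38 or 4.27, log2). The lists with no call by edgeR also had none by DESeq2. An unadjusted p below 0.05 by edgeR was reached by 7320 of all 16294 tested genes. In these lists it was reached by 72 of 80 ribosomal protein, 30 of 37 mitosis, 25 of 40 replication and 20 of 29 translation genes. It was also reached by 16 of 37 DNA damage, 15 of 20 heat shock, 4 of 5 substrate and 2 of 5 HOXB genes. The small medians of the DNA damage and HOXB lists changed sign under some settings. The excess of genes with a higher effect in THP1 over Molm13 (4404 against 3738) turned round with library totals alone (4050 against 4113) and with upper-quartile factors (3916 against 4258). Within 200 bases before the start, the ISRE was found in 10.4% of upregulated, 0.366% of downregulated and 1.95% of all matched promoters. In the same order, the NF-κB motif was found in 12.6%, 14.3% and 9.51%, and the gamma-activated site in 6.4%, 2.2% and 4.3%. These shares too describe the matched windows only, and a comparison between them is void because too few windows were matched.

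The labels number the libraries of both arms 1 and 2 without stating a shared batch, and deviations of same-numbered libraries correlated at −0.0146, so the numbers were not taken as pairs. A fit with the replicate block called 627 genes up and 392 down, 622 and 388 of them shared with the unpaired fit. Genes of a few counts were removed by the filter, and of the 4 IFN ligand genes in the fit without it, IFNB1 alone had an FDR below 0.05.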
